A study of Mus musculus with 1483 samples.

Results

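Neurons labelled by the enhancer eHGT_078h were compared with neurons labelled by the enhancer eHGT_058h. The members were all cells whose genotype label is eHGT_078h (140 cells of 3 mice) and all cells whose genotype label is eHGT_058h (120 cells of 3 mice), together 260 of the 1483 cells of the series. The series profiled cells of 33 mice and 11 enhancers, up to 48 cells per mouse by its design text. Each mouse was of strain C57Bl/6J and carried an adeno-associated virus in which 1 enhancer drove a transgene. Single cells expressing the yellow fluorescent protein SYFP2 were flow sorted from the tissue labelled VISp (the usual abbreviation of primary visual cortex), and their polyadenylated RNA was sequenced by SMARTer version 4, a full-length method that reads 1 cell per tube. Both groups thus share strain, tissue, reporter and method, and differ by label in the enhancer alone. The sources used here give no age, sex, virus dose, time after injection or enhancer sequence. The values are CPM (reads of a gene per 1000000 reads of its cell), averaged per mouse, and the mouse was the replicate.

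By the labels' mouse IDs, the eHGT_078h mice are MouseID-453328, MouseID-454782 and MouseID-498749 (48, 46 and 46 cells), and the eHGT_058h mice are MouseID-458159, MouseID-463481 and MouseID-497551 (39, 35 and 46 cells). Values of single mice are given in that order throughout. Reads per mouse totalled between 20687478 and 28857224, the median cell of a mouse held between 411546 and 676427 reads, and 4 of the 260 cells held fewer than 100000. With each cell thinned to 200000 reads, the median number of detected genes per mouse lay between 8543.5 and 9459 across both groups. Library names began with the letter G for 2 mice of each enhancer and with J for the third, MouseID-498749 and MouseID-497551. In the excitatory cells, 3 of 6 astrocyte markers, 3 of 6 oligodendrocyte markers, 0 of 5 microglia markers and 1 of 5 vascular markers reached the level for testing. Of these the glutamate transporter Slc1a2, which is not limited to astrocytes, was called, at 205, 83.2 and 218 CPM with eHGT_078h and 386, 614 and 537 CPM with eHGT_058h (limma adjusted p = 0.0449, and up to 0.146 without a mouse).

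Excitatory neurons of the cortex differ by layer and by where their axons run. Neurons of layer 5 that project out of the telencephalon (extratelencephalic, ET) depend on the transcription factor Fezf2 and its partner Bcl11b, while Rorb, a nuclear receptor, marks layer 4 and part of the layer 5 neurons that project within the telencephalon (intratelencephalic, IT). Dkkl1 encodes a secreted protein related to the Dickkopf regulators of Wnt signalling, and Arc encodes a synaptic regulator whose mRNA is transcribed within minutes of strong synaptic activity, together with immediate early transcription factors such as Fos and Egr1.

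The cells labelled by eHGT_078h were nearly all excitatory, and those labelled by eHGT_058h were a mixture. A cell was read as excitatory with the vesicular glutamate transporter Slc17a7 at 10 CPM or more and both GABA-synthesizing enzymes, Gad1 and Gad2, below 10 CPM. By that reading 48 of 48, 44 of 46 and 44 of 46 cells were excitatory in the eHGT_078h mice, and 26 of 39, 29 of 35 and 37 of 46 in the eHGT_058h mice. The mean share was 97.1 ± 2.51% for eHGT_078h and 76.7 ± 8.73% for eHGT_058h (SD, n = 3 mice each), a difference of 20.4 percentage points. The mice did not overlap, and the 2-sided exact permutation test gave p = 0.1, the smallest that 3 mice against 3 allow over 20 assignments. GABAergic cells, read by the opposite criteria, numbered 2 of 140 for eHGT_078h and 26 of 120 for eHGT_058h. A further 2 cells of each enhancer held both kinds of marker, and none held neither.

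Among the excitatory cells, both enhancers labelled Fezf2-positive cells in overlapping shares, and Rorb-positive cells were rarer in every eHGT_078h mouse. Fezf2 reached 10 CPM in 27 of 48, 17 of 44 and 18 of 44 excitatory cells of the eHGT_078h mice, and in 10 of 26, 11 of 29 and 18 of 37 of the eHGT_058h mice (45.3 ± 9.58% and 41.7 ± 6.04%, exact permutation p = 0.5). These ranges overlap, and the sign of the difference, 3.58 points, turned to -1.91 points without eHGT_078h MouseID-453328 and to -1.36 points with a threshold of 3 CPM. Rorb reached 10 CPM in 10 of 48, 1 of 44 and 12 of 44 excitatory cells of the eHGT_078h mice, and in 16 of 26, 22 of 29 and 27 of 37 of the eHGT_058h mice. That is 16.8 ± 13% for eHGT_078h and 70.1 ± 7.57% for eHGT_058h, a difference of -53.3 points with no overlap (exact permutation p = 0.1). MouseID-454782, with 1 Rorb-positive cell (2.27%, 95% Wilson interval 0.402 to 11.8%, counting error only), lay lowest, and the 2 other eHGT_078h mice were at 20.8% and 27.3%. Cells with neither gene made up 48.8 ± 9.80% of the excitatory cells for eHGT_078h and 28.6 ± 5.41% for eHGT_058h (exact permutation p = 0.1).

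**Figure D1:**
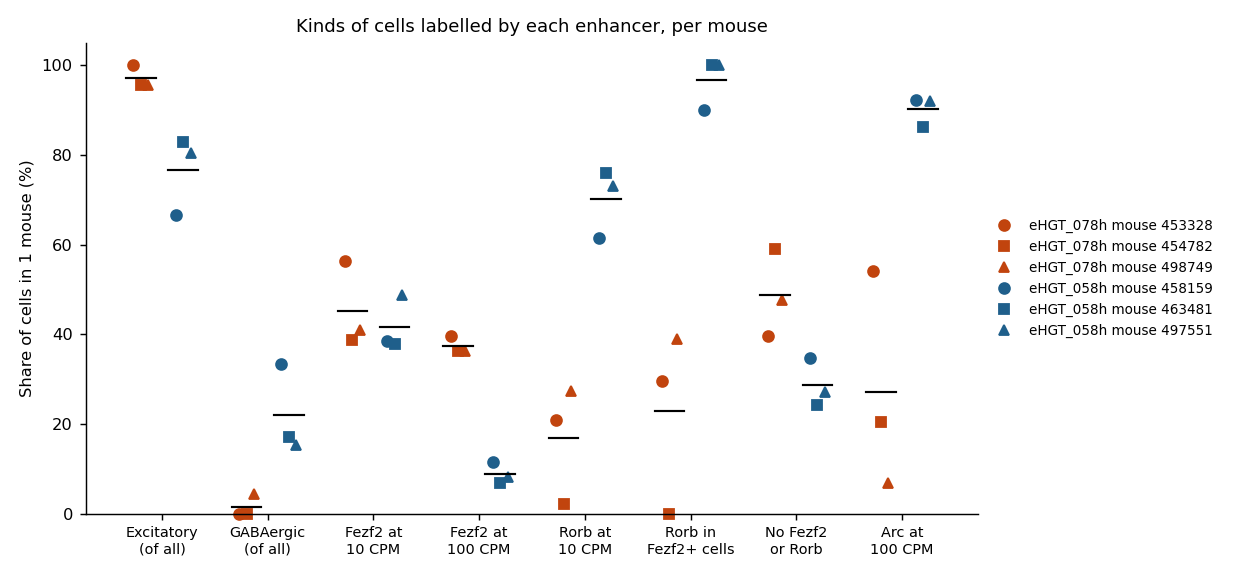
Percent of cells per mouse (vertical axis, 0 to 100%) for each cell class, with eHGT_078h at left and eHGT_058h at right in each class; points are the 3 mice and horizontal lines are means. The first 2 classes are shares of all cells, Rorb in Fezf2+ cells is a share of Fezf2-positive cells, and the others are shares of excitatory cells; the Fezf2-positive shares at 10 CPM overlap between the enhancers, and the Rorb-positive shares do not (16.8% with eHGT_078h and 70.1% with eHGT_058h on average).

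The Fezf2-positive cells differed between the enhancers in Rorb and in the level of Fezf2. Of the Fezf2-positive excitatory cells, 15 of 62 also had Rorb at 10 CPM or more with eHGT_078h (8 of 27, 0 of 17 and 7 of 18 by mouse), against 38 of 39 with eHGT_058h (9 of 10, 11 of 11 and 18 of 18). The share averaged 22.8 ± 20.3% for eHGT_078h and 96.7 ± 5.77% for eHGT_058h, without overlap (exact permutation p = 0.1). Fezf2 at a higher level, 100 CPM or more, was found in 37.4 ± 1.86% of the excitatory cells of eHGT_078h and in 8.85 ± 2.41% of those of eHGT_058h, again without overlap.

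**Figure D2:**
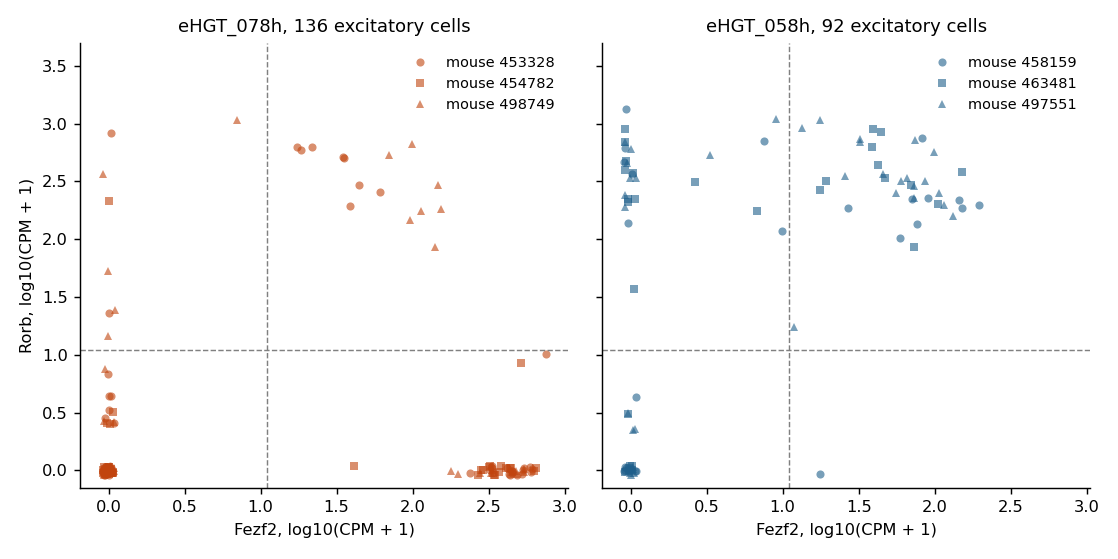
Rorb against Fezf2 in each excitatory cell, both as log10(CPM + 1), with eHGT_078h (136 cells) at left and eHGT_058h (92 cells) at right; each point is 1 cell, with a symbol for each mouse and a small sideways shift so that points at 0 can be seen, and broken lines mark 10 CPM. The eHGT_078h panel holds a group of 47 cells with Fezf2 and without Rorb, and the eHGT_058h panel holds 1 such cell.

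Split by Rorb at 10 CPM, the Fezf2-positive cells of eHGT_078h fell into a large set with high Fezf2 and a small set with lower Fezf2. This split was chosen after the values were seen and is a description with no test. The 47 Rorb-negative cells (19, 17 and 11 by mouse) had a median of 398 CPM of Fezf2, with a range of 42.5 to 773 CPM. The 15 Rorb-positive cells of eHGT_078h had a median of 60.0 CPM (16.3 to 143 CPM), and the 38 Rorb-positive cells of eHGT_058h a median of 66.7 CPM (11.6 to 198 CPM). The 15 cells came from MouseID-453328 (8 cells, 16.3 to 60.0 CPM) and MouseID-498749 (7 cells, 73.6 to 143 CPM), whose ranges did not overlap. Their means were 32.9 and 115 CPM, against 97.5, 57.3 and 62.7 CPM in the Rorb-positive cells of the eHGT_058h mice. Bcl11b was at 10 CPM or more in all 47 of the Rorb-negative eHGT_078h cells, with a median of 104 CPM. It was at 0 in all 15 Rorb-positive cells of eHGT_078h, and at 10 CPM or more in 1 of the 38 of eHGT_058h. Dkkl1 ran the other way: its median was 0 CPM in the Rorb-negative eHGT_078h cells, 198 CPM in the Rorb-positive eHGT_078h cells, and 283 CPM in the Rorb-positive eHGT_058h cells. The small double-positive set of eHGT_078h had Fezf2, Bcl11b and Dkkl1 in ranges that overlap those of the double-positive eHGT_058h cells. The single Rorb-negative, Fezf2-positive cell of eHGT_058h had 16.9 CPM of Fezf2 and no Bcl11b.

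The genes that mark the 2 enhancers were first compared over all excitatory cells of each mouse. Fezf2 (chr14:12342094-12348189, minus strand, GRCm38) averaged 191, 141 and 116 CPM in the eHGT_078h mice and 35, 22 and 30.8 CPM in the eHGT_058h mice. It was higher in every eHGT_078h mouse, by 2.31 on the log2(CPM + 1) scale (standard error (SE) 0.22, limma adjusted p = 0.000196). Such a mean moves both with the share of positive cells and with the level in each cell. Differences from here on are on the same scale, which understates the change of low genes, and all adjusted p-values are from limma with Benjamini-Hochberg adjustment over all genes tested. Dkkl1 (chr7:45207519-45212147, minus strand) averaged 126, 133 and 88.1 CPM in the eHGT_078h mice and 303, 300 and 283 CPM in the eHGT_058h mice. Its log2 difference was -1.37 (SE 0.165, adjusted p = 0.000949), and its mice did not overlap. Over excitatory cells the gene was less even with eHGT_078h, at 10 CPM or more in 26 of 48, 30 of 44 and 23 of 44 cells, than with eHGT_058h, at 26 of 26, 29 of 29 and 36 of 37.

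Rorb and Arc were lower in every eHGT_078h mouse but did not pass the test across all genes. Rorb (chr19:18930605-19111196, minus strand) averaged 90.3, 5.46 and 80.7 CPM in the eHGT_078h mice and 224, 302 and 333 CPM in the eHGT_058h mice, with a log2 difference of -2.96 and an adjusted p of 0.257. Arc (chr15:74669083-74672570, minus strand) averaged 217, 49.7 and 25.9 CPM in the eHGT_078h mice and 831, 384 and 787 CPM in the eHGT_058h mice, with a log2 difference of -3.24 and an adjusted p of 0.132. The eHGT_078h mice spread widely for both genes: MouseID-454782 was lowest for Rorb and MouseID-498749 for Arc. Cells with 100 CPM of Arc or more made up 54.2%, 20.5% and 6.82% of the excitatory cells in the eHGT_078h mice and 92.3%, 86.2% and 91.9% in the eHGT_058h mice.

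Some libraries of both enhancers share a name prefix, which allows the same values within a prefix. In the prefix shared by MouseID-453328 and MouseID-454782 of eHGT_078h and MouseID-458159 of eHGT_058h, the means were 187 and 166 CPM of Fezf2 with eHGT_078h and 35 CPM with eHGT_058h, and 133 and 60.1 CPM of Arc with eHGT_078h and 831 CPM with eHGT_058h. In the prefix shared by MouseID-498749 and MouseID-497551, Fezf2 stood at 146 CPM with eHGT_078h and 30.8 CPM with eHGT_058h, and Arc at 13.8 CPM with eHGT_078h and 787 CPM with eHGT_058h. Dkkl1 was at 87.8 and 143 CPM with eHGT_078h and 303 CPM with eHGT_058h in the first prefix, and at 116 CPM with eHGT_078h and 283 CPM with eHGT_058h in the second. Rorb was at 86.6 and 0.636 CPM with eHGT_078h and 224 CPM with eHGT_058h in the first prefix, and at 121 CPM with eHGT_078h and 333 CPM with eHGT_058h in the second. Every within-prefix difference of these 4 genes had the sign of the whole comparison. These cells are part of that comparison, so the shared sign is a description. MouseID-463481 of eHGT_058h shared no prefix with an eHGT_078h mouse and is not covered.

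**Figure D3:**
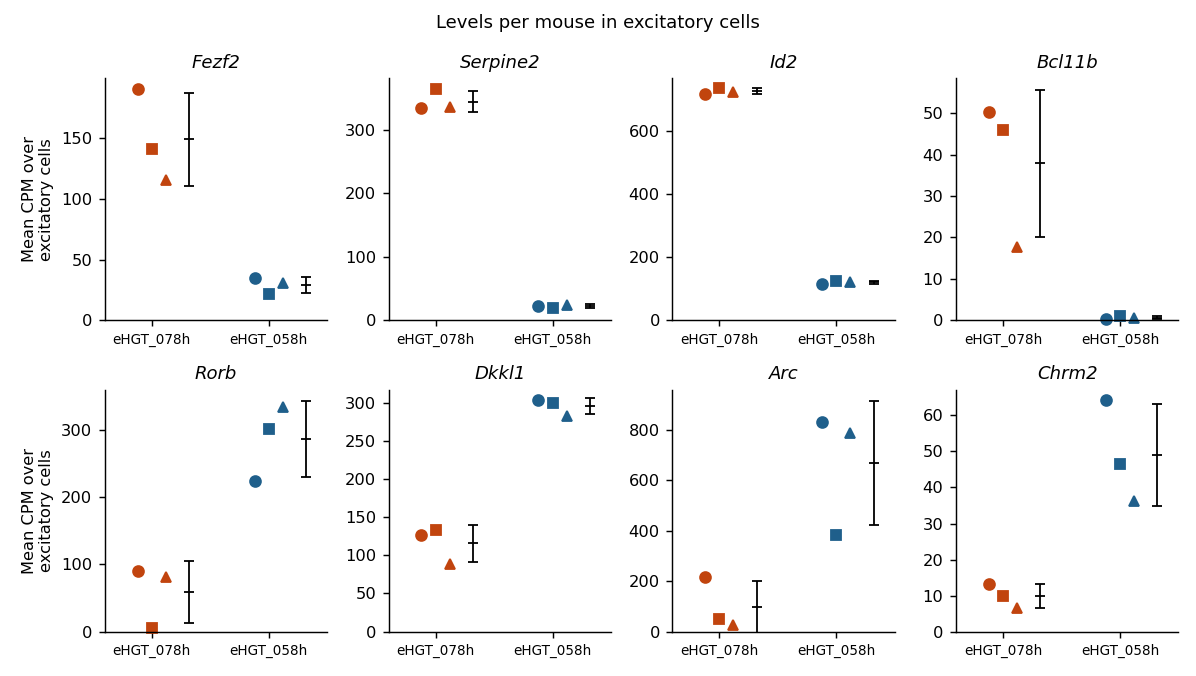
Mean CPM per mouse over excitatory cells (vertical axes from 0, one scale per gene) of Fezf2, Serpine2, Id2, Bcl11b, Rorb, Dkkl1, Arc and Chrm2, with eHGT_078h at left and eHGT_058h at right; points are mice, and the bars beside them give the mean and SD, cut at 0 for Arc with eHGT_078h. The 3 mice of one enhancer lie beyond the 3 of the other for each of these genes, and the eHGT_078h mice are widely spread for Rorb and Arc. Serpine2, Bcl11b and Chrm2 were named by a rule that required this order. Over all tested genes 13.2% had the eHGT_078h mice all above and 12.5% all below.

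Across all genes of the excitatory cells, 508 of 15752 tested genes (3.22%) were called, with 247 higher (1.57%) and 261 lower (1.66%) with eHGT_078h. A call needed an adjusted p under 0.05 together with a log2 difference of 1 or more in size. The median log2 difference over all tested genes was -0.00691. The count was sensitive to single mice, at 218 without eHGT_058h MouseID-497551, 259 without eHGT_058h MouseID-463481 and 308 and 326 without eHGT_078h MouseID-454782 and MouseID-498749. Where the call of a gene was lost with 1 mouse left out, the highest adjusted p without a mouse is given.

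Of 8 tested marker genes of layer 5 ET neurons 7 rose with eHGT_078h and none fell, against 1.57% and 1.66% of all tested genes. Testing required a mean of 1 CPM in 2 of the 6 mice, and Bcl11b, Fam84b and C1ql2 reached that level through the eHGT_078h mice, where they are high, so the count of 7 is a description. Lgr5 reached it through the eHGT_058h mice. The 4 members at that level in both groups, Fezf2, Crym, Pou3f1 and Parm1, all rose. Of the 8 tested markers, between 6 and 7 passed with any 1 mouse left out, and 4 passed with mice of library letter G only. When log values rather than CPM were averaged over cells, 3 of the 8 passed. The list includes Fezf2, 1 of the 4 genes named when the comparison was chosen. Bcl11b (chr12:107910403-108003602, minus strand), the transcription factor that acts with Fezf2 in corticospinal and other subcerebral neurons, averaged 50.2, 45.9 and 17.6 CPM in the eHGT_078h mice and 0.361, 1.02 and 0.543 CPM in the eHGT_058h mice (log2 difference 4.45, SE 0.42, adjusted p = 0.000196). It reached 10 CPM in 21 of 48, 24 of 44 and 13 of 44 excitatory cells with eHGT_078h, and in 0 of 26, 1 of 29 and 1 of 37 with eHGT_058h. Crym, which encodes the thyroid hormone-binding protein mu-crystallin, averaged 162, 121 and 120 CPM with eHGT_078h and 43.4, 39.7 and 31.1 CPM with eHGT_058h (log2 difference 1.79, adjusted p = 0.000337). Pou3f1 (chr4:124656807-124660655, plus strand), a POU-domain transcription factor, averaged 67.8, 45.3 and 31.8 CPM with eHGT_078h and 4.96, 15.6 and 4.13 CPM with eHGT_058h (2.56, adjusted p = 0.00736). Fam84b and Parm1 rose as well, and C1ql2, a secreted C1q-like protein, was at 8.55, 1.49 and 6.39 CPM with eHGT_078h and at 0 in all 3 eHGT_058h mice (adjusted p up to 0.0791 without a mouse). Lgr5 was not called (log2 difference -0.80), and Chrna6 was too low to test.

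Marker genes of layer 4 and layer 5 IT neurons were lower in every eHGT_078h mouse, and how many passed the test depended on single mice. All 7 tested genes of that list had the eHGT_078h mice below the eHGT_058h mice, an order that 12.5% of all tested genes showed. They include Rorb, 1 of the 4 genes named when the comparison was chosen. The list's median log2 difference was -2.65, and 2 of the 7, Rspo1 and Whrn, were called (all genes, 1.66% lower). The number called was 6 without eHGT_078h MouseID-454782, 5 without eHGT_078h MouseID-453328, 3 without eHGT_078h MouseID-498749 and 1 without eHGT_058h MouseID-463481 or MouseID-497551. It was 7 when log values rather than CPM were averaged over cells. Rspo1 (chr4:124986430-125009099, plus strand), a secreted activator of Wnt signalling, averaged 6.04, 3.15 and 6.72 CPM with eHGT_078h and 57.5, 60.8 and 16.3 CPM with eHGT_058h (log2 difference -2.70, SE 0.46, adjusted p = 0.00784). Whrn (chr4:63414910-63495991, minus strand), which encodes the scaffold protein whirlin, averaged 21.6, 3.76 and 14.2 CPM with eHGT_078h and 63.8, 61.6 and 98.7 CPM with eHGT_058h (-2.65, adjusted p = 0.0243, and up to 0.0850 without an eHGT_058h mouse). Endou averaged 18.2, 0 and 9.34 CPM with eHGT_078h and 53.1, 68.6 and 71.8 CPM with eHGT_058h without passing (-3.48, adjusted p = 0.175). MouseID-454782 was the lowest of all mice for Rorb, Whrn and Endou alike.

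Markers of the other layers gave 1 call. Of 8 tested genes of layer 2/3 IT neurons 1 rose, Otof, at 7.40, 3.37 and 9.89 CPM with eHGT_078h and 0.930, 0.0568 and 1.79 CPM with eHGT_058h (adjusted p = 0.0315, and up to 0.132 without a mouse). Otof reached the level for testing through the eHGT_078h mice. The number of layer 2/3 IT markers called was 4 without eHGT_078h MouseID-454782, 2 with the library letter as a covariate and 0 without eHGT_078h MouseID-453328 or eHGT_058h MouseID-497551. Calb1, a calcium-binding protein of superficial neurons, averaged 347, 151 and 642 CPM with eHGT_078h and 81.4, 96.5 and 67.6 CPM with eHGT_058h, with no overlap but an adjusted p of 0.0947. None of the 3 tested markers of layer 5 near-projecting neurons, the 5 of layer 6 corticothalamic neurons, the 5 of layer 6 IT neurons or the 2 of layer 6b was called. None of 10 tested markers of glutamatergic neurons in general was called either, leaving out Slc17a7, which chose the cells.

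**Figure D4:**
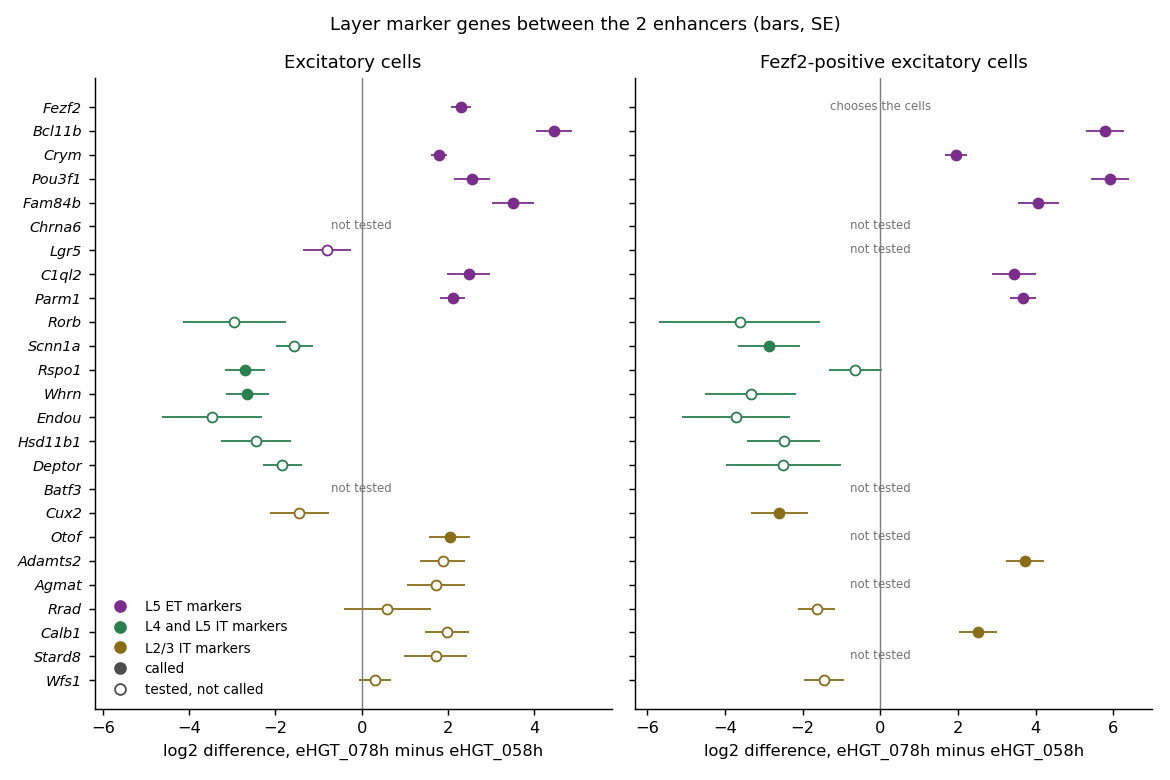
Log2 difference of mean CPM per mouse, eHGT_078h minus eHGT_058h (horizontal axis), for each marker of layer 5 ET, layer 4 and 5 IT and layer 2/3 IT neurons, in all excitatory cells at left and in Fezf2-positive excitatory cells at right; bars are SEs and filled points were called. In excitatory cells 7 of 8 layer 5 ET markers lie right of 0 and were called, and all 7 layer 4 and 5 IT markers lie left of 0, with 2 called.

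Of 24 transcription factors linked to projection identity 8 rose and 1 fell with eHGT_078h, against 1.57% and 1.66% of all tested genes. Bcl11b reached the level for testing through the eHGT_078h mice, so the count of 8 is a description. Of the 23 factors at that level in both groups 7 rose and 1 fell. The list includes Fezf2, which was named when the comparison was chosen. Beside Fezf2, Bcl11b and Pou3f1, the genes that rose were Ldb2, Etv1, Bcl6, Nfib and Id2 (the call of Bcl6 with adjusted p up to 0.0630 without a mouse, and that of Nfib falling under the fold limit without 1). Id2 (chr12:25093799-25097140, minus strand), an inhibitor of basic helix-loop-helix factors, averaged 717, 735 and 724 CPM in the eHGT_078h mice and 115, 123 and 121 CPM in the eHGT_058h mice. Both groups were tight, and the log2 difference of 2.59 (SE 0.12, adjusted p = 4.45e-07) held under every alternative tried. Etv1, an ETS-family factor of layer 5, averaged 76.1, 67.9 and 83.1 CPM with eHGT_078h and 23.3, 13.4 and 23.5 CPM with eHGT_058h (1.90). Foxp1, a forkhead factor, fell, with 222, 201 and 198 CPM with eHGT_078h and 407, 451 and 394 CPM with eHGT_058h. Its log2 difference of -1.01 (adjusted p = 0.00138) lies at the fold limit, and the call was lost without any of 3 mice although its adjusted p stayed at or below 0.0107. Lmo4 had an adjusted p of 0.0228 but a difference under the fold limit (-0.74).

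The largest rises over excitatory cells were in genes of varied function. Stk17b, a death-associated protein kinase, averaged 39.6, 29.1 and 23.3 CPM with eHGT_078h and 1.10, 0 and 0 CPM with eHGT_058h (log2 difference 4.60, adjusted p = 0.000156). Stk17b reached the level for testing through the eHGT_078h mice, where it is high. Qrfpr, the receptor of the neuropeptide QRFP, averaged 122, 69.4 and 78.4 CPM with eHGT_078h and 0, 11.3 and 3 CPM with eHGT_058h (4.59, adjusted p = 0.0383, and up to 0.157 without a mouse). Then came Pcdh8 (a protocadherin, 4.48), Bcl11b, Reln (4.25), Samd3 (4.18), Tekt5 (4.08), Igfbp4 (3.91), Serpine2 (3.91), Syt2 (3.85), Npnt (3.55) and Tox2 (3.21). Reln, which encodes the extracellular glycoprotein reelin, averaged 66.3, 40.7 and 43.4 CPM with eHGT_078h and 2.48, 0.108 and 3.69 CPM with eHGT_058h. Igfbp4 (chr11:99041244-99054392, plus strand), a binding protein of insulin-like growth factors, averaged 114, 93.1 and 74.6 CPM with eHGT_078h and 5.82, 8.20 and 2.84 CPM with eHGT_058h (SE 0.31, adjusted p = 7.01e-05). Serpine2 (chr1:79794197-79861180, minus strand), a secreted inhibitor of serine proteases such as thrombin, had the smallest adjusted p of the named genes (1.08e-07), at 333, 363 and 335 CPM with eHGT_078h and 22.7, 18.9 and 24.5 CPM with eHGT_058h. Its mean hides a wide spread over cells: it reached 10 CPM in 33 of 48, 19 of 44 and 37 of 44 excitatory cells with eHGT_078h, and in 11 of 26, 10 of 29 and 17 of 37 with eHGT_058h.

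The largest falls were smaller than the largest rises. They were Rspo1, Whrn, Hbegf (-2.60), Grik1 (-2.53), Pamr1 (-2.37), Trib1 (-2.34), Chrm2 (-2.21), Susd5 (-2.16), Socs2 (-2.07), Krt20 (-1.98), Nuak1 (-1.95) and Boc (-1.92). Calls that held without each mouse were those of Rspo1, Grik1, Chrm2 and Socs2; those of the other 8 were lost without at least 1 mouse, with adjusted p up to 0.114. Grik1, a subunit of kainate-type glutamate receptors, averaged 24.6, 6.26 and 14.1 CPM with eHGT_078h and 72.4, 76.2 and 93.2 CPM with eHGT_058h (adjusted p = 0.00452). Chrm2 (chr6:36388084-36528414, plus strand), the muscarinic acetylcholine receptor M2, averaged 13.1, 9.87 and 6.54 CPM with eHGT_078h and 64.2, 46.6 and 36.1 CPM with eHGT_058h (adjusted p = 0.0016). Socs2, a suppressor of cytokine signalling, averaged 22.1, 11.6 and 16.1 CPM with eHGT_078h and 63.0, 82.4 and 67.8 CPM with eHGT_058h (adjusted p = 0.000779).

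Receptor and channel genes of excitatory cells were counted beside the 1.57% of all tested genes that were higher and the 1.66% that were lower with eHGT_078h. Of 23 tested receptors of neuromodulators 2 rose and 2 fell: the muscarinic receptor Chrm3 and the natriuretic peptide receptor Npr3 were higher with eHGT_078h, and Chrm2 and Crhr1, the receptor of corticotropin-releasing hormone, were lower. Chrm3 averaged 125, 151 and 99.6 CPM with eHGT_078h and 42.6, 57.9 and 32.4 CPM with eHGT_058h (log2 difference 1.49, adjusted p = 0.00348), so 2 muscarinic receptors differed in opposite directions. Crhr1 averaged 26.2, 21.6 and 23.9 CPM with eHGT_078h and 62.9, 59.5 and 67.9 CPM with eHGT_058h (-1.37, adjusted p = 0.0016). Of 35 potassium and HCN channel genes, Kcnn2, a calcium-activated SK channel, rose, with 135, 135 and 102 CPM with eHGT_078h and 30.2, 32.9 and 51.2 CPM with eHGT_058h (1.70, adjusted p = 0.00114), and Kcnc2, Kcnh1 and Kcnn3 fell (adjusted p up to 0.107 without a mouse). That 1 rise among 35 is a share near that of all genes. Of 20 glutamate receptor genes, Gria3, an AMPA receptor subunit, and Grm8 rose (the call of Grm8 with adjusted p up to 0.144 without a mouse) and Grik1 fell. Gria3 averaged 407, 376 and 442 CPM with eHGT_078h and 137, 159 and 161 CPM with eHGT_058h (1.42, adjusted p = 0.000196). None of 12 GABA-A receptor genes was called. Of 35 genes of axon guidance and adhesion 4 rose (Nrp1, Nrp2, Robo3 and Efnb3) and 3 fell (Plxnd1, Dcc and Cdh12). Of these, the calls of Nrp1 and Robo3 held without each mouse, and the others had adjusted p up to 0.201. Robo3, a receptor of the Slit guidance pathway, averaged 15.7, 10.8 and 11.2 CPM with eHGT_078h and 0.768, 0.789 and 0.738 CPM with eHGT_058h. Of 16 secreted modulators none rose, and Dkkl1, Rspo1 and Wnt9a fell, the last with adjusted p up to 0.156 without a mouse. Npr3 and Robo3 reached the level for testing through the eHGT_078h mice.

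Restricted to Fezf2-positive excitatory cells (27, 17 and 18 cells with eHGT_078h, 10, 11 and 18 with eHGT_058h), 1090 of 15614 tested genes (6.98%) were called, 564 higher (3.61%) and 526 lower (3.37%) with eHGT_078h, at a median log2 difference over all genes of 0.0326. The count was 493 without eHGT_078h MouseID-454782, 495 without eHGT_058h MouseID-497551, 566 without eHGT_078h MouseID-498749 and 705 without eHGT_058h MouseID-463481. All 6 tested layer 5 ET markers other than Fezf2, which chose the cells, rose, and did so with any 1 mouse left out. Of these, Bcl11b, Pou3f1 and C1ql2 reached the level for testing through the eHGT_078h mice, and the other 3 were at that level in both groups. Bcl11b averaged 87.8, 95.2 and 38.6 CPM with eHGT_078h and 0, 0 and 1.01 CPM with eHGT_058h (log2 difference 5.79, adjusted p = 5.02e-05). Parm1 averaged 167, 184 and 144 CPM with eHGT_078h and 19.9, 6.5 and 12.9 CPM with eHGT_058h (3.67). Of the 7 tested layer 4 and 5 IT markers 1, Scnn1a, fell, and this call was lost when any 1 of 5 mice was left out (adjusted p up to 0.155). Scnn1a reached the level for testing through the eHGT_058h mice. The number called was 4 without eHGT_078h MouseID-454782, 2 without eHGT_078h MouseID-453328, 0 without any 1 of the eHGT_058h mice and 6 when log values were averaged over cells. Endou stood at 28.9, 0 and 17.6 CPM with eHGT_078h and 98.7, 109 and 116 CPM with eHGT_058h without passing (-3.72, adjusted p = 0.176). Of 5 tested layer 2/3 IT markers, Calb1 was among those that rose and Cux2 fell, at a list median of -1.46. How many of them were called changed without single mice.

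Several genes of these cells were read with eHGT_078h and not at all with eHGT_058h. Igfbp4 averaged 186, 214 and 147 CPM in the Fezf2-positive cells of the eHGT_078h mice, and had 0 reads among the 21555565 of the 39 Fezf2-positive eHGT_058h cells. Set against a floor of 3 reads over that group, it was at least 1312-fold higher with eHGT_078h. On the same floor Stk17b (70.5, 75.3 and 51.9 CPM with eHGT_078h, 0 in every eHGT_058h mouse) was at least 474-fold higher, Npnt at least 369-fold, Tekt5 at least 312-fold and Npr3 at least 275-fold. Reln averaged 100, 99.8 and 54.7 CPM with eHGT_078h and 0, 0.150 and 0.309 CPM with eHGT_058h (log2 difference 6.18). Qrfpr averaged 170, 170 and 136 CPM with eHGT_078h and 0, 0 and 1.85 CPM with eHGT_058h (6.81), and Pou3f1 112, 111 and 61.7 CPM with eHGT_078h and 0.153, 0 and 2.16 CPM with eHGT_058h (5.91). All of these genes reached the level for testing through the eHGT_078h mice, where they are high, so the differences are a description. These genes sat in the Rorb-negative cells: of the 47 such eHGT_078h cells, 46 had Igfbp4, 45 Reln, 44 Qrfpr and 42 Stk17b at 10 CPM or more, and of the 15 Rorb-positive eHGT_078h cells 2 had Igfbp4 and none had Reln, Qrfpr or Stk17b.

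Id2 and Serpine2 were also far apart in the Fezf2-positive cells. Id2 averaged 934, 1184 and 922 CPM with eHGT_078h and 66.5, 105 and 74.2 CPM with eHGT_058h (log2 difference 3.63, adjusted p = 2.11e-06). Serpine2 averaged 548, 930 and 635 CPM with eHGT_078h and 24.9, 29.7 and 37.1 CPM with eHGT_058h (4.46, adjusted p = 1.19e-06). Unlike Igfbp4, both were present in the double-positive cells of both enhancers, with medians of 91.0 CPM (Id2) and 22.2 CPM (Serpine2) in the 15 eHGT_078h cells and 42.5 and 20.3 CPM in the 38 eHGT_058h cells. The 15 cells came from MouseID-453328 and MouseID-498749, with means of 156 and 498 CPM of Id2 and 27.3 and 169 CPM of Serpine2. In such cells the eHGT_058h mice averaged 56.5, 105 and 74.2 CPM of Id2 and 27.7, 29.7 and 37.1 CPM of Serpine2.

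The largest falls in Fezf2-positive cells were in Hbegf (-4.21), a ligand of the EGF receptor, Dact1 (-3.68), a regulator of Wnt signalling, the G protein-coupled receptor Gpr83 (-3.63), Ppp1r14c (-3.40), an inhibitor of protein phosphatase 1, and Cbln4 (-3.36), a secreted synaptic organizer. Dact1 averaged 2.08, 0 and 1.69 CPM with eHGT_078h and 24.4, 17.5 and 36.2 CPM with eHGT_058h (adjusted p = 0.00197), and Gpr83 1.33, 0 and 2.51 CPM with eHGT_078h and 24.9, 35.9 and 15.3 CPM with eHGT_058h (adjusted p = 0.00263). These 2 calls held without each mouse; those of Hbegf, Ppp1r14c and Cbln4 did not (adjusted p up to 0.107). Slc30a3, the zinc transporter of synaptic vesicles, averaged 55.1, 41.7 and 48.6 CPM with eHGT_078h and 117, 129 and 156 CPM with eHGT_058h (-1.45). Of the projection factors 8 of 23 rose and 3 fell, against 3.61% and 3.37% of all tested genes (the falls in Cux2, Lmo4 and Foxp1, with adjusted p up to 0.168 without a mouse). Bcl11b and Pou3f1 reached the level for testing through the eHGT_078h mice. Of the 21 factors at that level in both groups 6 rose and 3 fell. Bcl6, a transcriptional repressor, averaged 73.1, 54.9 and 30.5 CPM with eHGT_078h and 1.43, 0.155 and 3.03 CPM with eHGT_058h (4.5, adjusted p = 0.000429). Etv1, Ldb2 and Nfib rose again, by 2.03, 2.21 and 1.87.

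In the Fezf2-positive cells, receptor and channel genes were counted beside the 3.61% of all tested genes that were higher and the 3.37% that were lower with eHGT_078h. Of 22 modulator receptors 5 rose (Chrm3, Chrna4, Adra1a, Npr3 and the cannabinoid receptor Cnr1) and 3 fell (Chrm2, Crhr1 and Sstr3). The calls of Chrm3, Adra1a, Cnr1 and Sstr3 were lost without some mice (adjusted p up to 0.151). Chrna4, a nicotinic receptor subunit, averaged 28.6, 25.6 and 22.7 CPM with eHGT_078h and 5.5, 5.62 and 4.37 CPM with eHGT_058h (2.11, adjusted p = 0.00476), and Chrm2 9.13, 1.90 and 4.61 CPM with eHGT_078h and 21.2, 46.3 and 41.7 CPM with eHGT_058h (-2.70, adjusted p = 0.00729). Of 19 sodium and calcium channel genes 3 rose and 3 fell. Scn4b, an auxiliary sodium channel subunit, averaged 21.5, 25.1 and 9.55 CPM with eHGT_078h and 0 in every eHGT_058h mouse, and Scn1a 266, 352 and 223 CPM with eHGT_078h and 82.3, 119 and 137 CPM with eHGT_058h (1.31, adjusted p = 0.00621). Of 34 tested potassium and HCN channel genes 6 fell, and Kcnn2 was among those that rose. It averaged 200, 251 and 198 CPM with eHGT_078h and 28.9, 56.9 and 47.5 CPM with eHGT_058h (2.30, adjusted p = 0.00026). Of 20 glutamate receptor genes 3 rose (Gria3, Grik3 and Grm8) and 3 fell (Gria4, Grin2d and Grm7), with adjusted p up to 0.126 for Grik3 and 0.0922 for Grm7 without a mouse. Grm8, a presynaptic metabotropic receptor, averaged 77.0, 111 and 66.1 CPM with eHGT_078h and 5.11, 7.14 and 1.98 CPM with eHGT_058h (3.98). The AMPA receptor subunits Gria3 and Gria4 moved apart: Gria4 averaged 340, 153 and 304 CPM with eHGT_078h and 679, 994 and 796 CPM with eHGT_058h (-1.69, adjusted p = 0.00353). Of 33 guidance and adhesion genes 6 rose and 3 fell, among them Efnb3, an ephrin, at 17.4, 30.6 and 12.6 CPM with eHGT_078h and 0.460, 0 and 0 CPM with eHGT_058h (4.13, adjusted p = 0.000628). Adra1a, Npr3, Scn4b, Grik3, Efnb3 and Robo3, which was among the 6 guidance and adhesion genes that rose, reached the level for testing through the eHGT_078h mice. Of the 29 guidance and adhesion genes at that level in both groups 4 rose and 3 fell.

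Of 14 tested immediate early transcription factors 6 fell with eHGT_078h among Fezf2-positive cells (all genes, 3.37%) and 2 among all excitatory cells (all genes, 1.66%), and the others did not pass. The cAMP response element is a known activity-dependent control site of such genes. Promoters of 3 genes that hold its core are printed here to show where it stands: the 150 bases before the annotated start of Fosb, which was called, and of Fos and Nr4a1, whose eHGT_078h mice all lay lower without a call. The sequences are from RefSeq on GRCm38.p6, 5′ to 3′ on the gene's strand, with TGACG and its complement CGTCA, the core of that element, in capitals.
Fosb, chr7:19310046-19310195, minus strand: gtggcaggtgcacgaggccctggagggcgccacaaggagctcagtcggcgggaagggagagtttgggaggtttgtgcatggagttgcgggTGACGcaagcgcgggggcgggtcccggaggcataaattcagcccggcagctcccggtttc
Fos, chr12:85473740-85473889, plus strand: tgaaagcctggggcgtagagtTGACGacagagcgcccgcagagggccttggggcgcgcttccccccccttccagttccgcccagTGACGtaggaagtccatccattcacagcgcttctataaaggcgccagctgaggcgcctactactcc
Nr4a1, chr15:101266696-101266845, plus strand: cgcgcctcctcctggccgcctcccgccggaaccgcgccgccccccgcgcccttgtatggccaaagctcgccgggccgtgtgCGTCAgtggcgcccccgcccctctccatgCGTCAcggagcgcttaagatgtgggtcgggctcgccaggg
Over the window of 250 bases before to 50 after the start, 10 of the 12 listed immediate early transcription factor genes with an entry held this core on either strand (83.3%), against 23% of all 27025 genes. Of the 6 genes called in Fezf2-positive cells, Fosb held it, Fosl2 and Jun had an entry without it, and no promoter was matched for Egr1, Egr3 and Ier2. A match of 5 bases is a description of the window and not a measured binding site.

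In the Fezf2-positive cells 6 of 14 tested immediate early transcription factors fell and none rose, against 3.37% and 3.61% of all tested genes. For 9 of the 14 every eHGT_078h mouse lay below every eHGT_058h mouse, an order that 13.3% of all tested genes showed, and the list's median log2 difference was -1.88. With 1 mouse left out between 4 and 12 passed: 12 without eHGT_078h MouseID-453328, and 4 without eHGT_078h MouseID-498749 or eHGT_058h MouseID-458159 or MouseID-497551. Fosb, an AP-1 component, averaged 15.8, 6.09 and 10 CPM with eHGT_078h and 49, 52 and 30.4 CPM with eHGT_058h (log2 difference -1.99, adjusted p = 0.00902). Egr3, a zinc finger factor, averaged 65.8, 42.8 and 90.7 CPM with eHGT_078h and 193, 192 and 122 CPM with eHGT_058h (-1.37, adjusted p = 0.0128). Ier2 averaged 20.2, 16.9 and 9.53 CPM with eHGT_078h and 58.3, 51.2 and 58.0 CPM with eHGT_058h (-1.84, adjusted p = 0.00459). These 3 calls held without each mouse. In the 47 Rorb-negative, Fezf2-positive cells of eHGT_078h the medians were 18.7 CPM of Arc, 31.6 CPM of Fos and 264 CPM of Egr1. In the 15 Rorb-positive cells of eHGT_078h they were, in that order, 191, 81.6 and 888 CPM. In the 38 of eHGT_058h they were 672, 264 and 1474 CPM, and eHGT_058h had 1 Rorb-negative cell. How far this difference in cells bears on the lower values was not tested.

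Other members of the list were lower with less certainty. Egr1 averaged 821, 269 and 241 CPM with eHGT_078h and 2074, 1355 and 1781 CPM with eHGT_058h (-2.18, adjusted p = 0.0323, and up to 0.124 without an eHGT_058h mouse). Fosl2 and Jun were called too, with adjusted p up to 0.0581 and 0.124 without a mouse. Fos averaged 158, 36.9 and 38.6 CPM with eHGT_078h and 263, 262 and 382 CPM with eHGT_058h (-2.27, adjusted p = 0.0519), and Nr4a1 226, 81.6 and 23.1 CPM with eHGT_078h and 434, 344 and 440 CPM with eHGT_058h (-2.40, adjusted p = 0.157). MouseID-453328 was the highest of the eHGT_078h mice for Fos, Egr1 and Nr4a1. Of 14 activity-induced effectors 2 fell: Homer1, a scaffold of the postsynaptic density, with 369, 213 and 242 CPM with eHGT_078h and 583, 702 and 630 CPM with eHGT_058h (-1.25, adjusted p = 0.00459), and the phosphatase gene Dusp6 (-1.07, adjusted p up to 0.102 without a mouse). Arc averaged 168, 20.2 and 22.9 CPM with eHGT_078h and 948, 457 and 903 CPM with eHGT_058h without passing (-4.05, adjusted p = 0.068).

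Over all excitatory cells the order of the mice was the same for Arc, Fos, Egr1 and Nr4a1, none of which was called. Of 14 tested immediate early transcription factors 2 fell, Egr3, at the fold limit, and Ier2 (-1.66), the list's median was -1.04, and for 6 of 14 the mice did not overlap, all lower with eHGT_078h, against 12.5% of all tested genes. Both calls were lost without single mice (adjusted p up to 0.113 and 0.125), and 8 of 14 were called without eHGT_078h MouseID-453328. Of the effectors Ptgs2, the inducible cyclooxygenase, was higher, at 20.6, 15.4 and 88.4 CPM with eHGT_078h and 3.47, 4.73 and 1.76 CPM with eHGT_058h (2.93, adjusted p = 0.0158, and up to 0.0811 without an eHGT_058h mouse). In the cells positive for both Fezf2 and Rorb, the mean of Arc was 315 CPM in the 8 cells of MouseID-453328 and 36.8 CPM in the 7 of MouseID-498749, against 898, 457 and 903 CPM in the eHGT_058h mice. Egr1 in the same cells averaged 1277 and 393 CPM with eHGT_078h and 2185, 1355 and 1781 CPM with eHGT_058h. Those values are a description with no test.

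**Figure D5:**
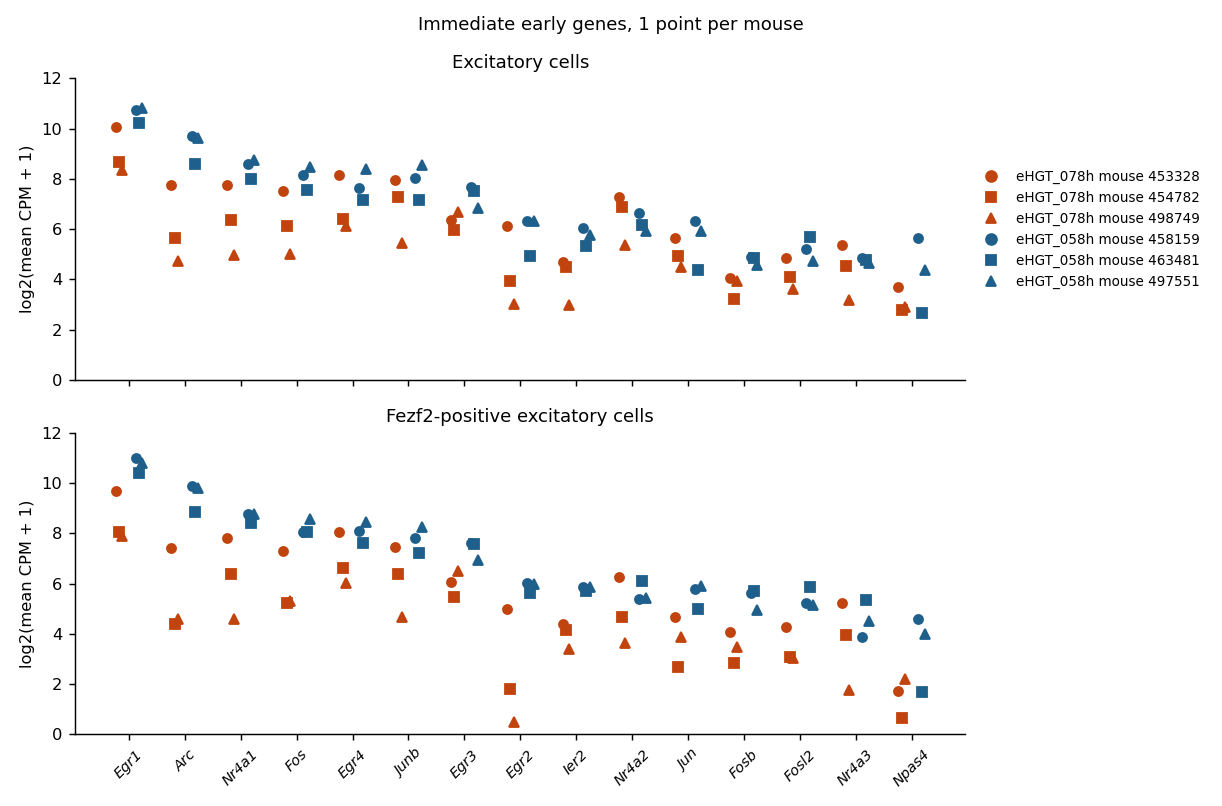
Log2 of the mean CPM + 1 per mouse (vertical axes) of Arc and 14 immediate early transcription factors in excitatory cells (top) and in Fezf2-positive excitatory cells (bottom), with eHGT_078h at left and eHGT_058h at right of each gene; each point is 1 mouse. Egr1, Fos and Arc lie lower in all 3 eHGT_078h mice in both sets of cells.

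In excitatory cells with neither Fezf2 nor Rorb at 10 CPM (66 of eHGT_078h, 26 of eHGT_058h), 4 of 15186 tested genes were called (0.0263%), 3 higher (0.0198%) and 1 lower (0.00659%). Pcdh7, a protocadherin, averaged 186, 111 and 202 CPM with eHGT_078h and 27.3, 27.7 and 36.6 CPM with eHGT_058h (log2 difference 2.37, SE 0.25, adjusted p = 0.019). Rgs6, a regulator of G protein signalling, averaged 116, 83.6 and 135 CPM with eHGT_078h and 28.8, 29.2 and 26.3 CPM with eHGT_058h (1.92, adjusted p = 0.0211). Id2 averaged 464, 469 and 640 CPM with eHGT_078h and 184, 203 and 254 CPM with eHGT_058h (1.29, adjusted p = 0.043). Pcp4, a calmodulin-binding peptide, averaged 46.1, 76.0 and 62.9 CPM with eHGT_078h and 335, 208 and 228 CPM with eHGT_058h (-2.04, adjusted p = 0.019). None of the 4 calls held without every mouse in turn, with adjusted p up to 0.165, and the count was 0 without eHGT_078h MouseID-453328 or MouseID-498749 or eHGT_058h MouseID-458159 or MouseID-463481, where between 1088 and 1725 genes had an unadjusted p under 0.05 in limma. It was 29 without eHGT_078h MouseID-454782 and 17 without eHGT_058h MouseID-497551. None of 8 tested layer 2/3 IT markers was called, although all 8 had a higher mean on the log2 scale with eHGT_078h (median log2 difference 1.86); Calb1 was at 728, 177 and 1184 CPM with eHGT_078h and 104, 58.0 and 190 CPM with eHGT_058h, with overlap. Mice of eHGT_078h lay all above those of eHGT_058h for 8.44% of the tested genes and all below for 7.11%. Arc (270, 59.4 and 31.2 CPM with eHGT_078h, 591, 158 and 450 CPM with eHGT_058h) overlapped as well, and none of 14 immediate early transcription factors was called. Tested directly, the difference between the enhancers in Fezf2-positive cells departed from that in cells with neither gene for 1 gene, Igfbp4, at an adjusted p of 0.0266. The count was 0 with a pseudocount of 0.1 (2617 genes at an unadjusted p under 0.05) and 224 with a pseudocount of 10, 107 of them higher and 117 lower, and it was 0 with any 1 mouse left out (1942 to 3085 genes then had an unadjusted p under 0.05 in limma). Igfbp4 was at 23.7, 17.4 and 28.9 CPM with eHGT_078h and at 16.8, 19.7 and 10.5 CPM with eHGT_058h in the cells with neither gene.

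Rorb-positive, Fezf2-negative cells allowed 1 eHGT_078h mouse only, MouseID-498749 with 5 cells, against the 3 eHGT_058h mice with 7, 11 and 9 cells. With no spread among eHGT_078h mice, the fit assumes that this mouse varies like the others, and it compares that mouse, not the enhancer, with the eHGT_058h mice. Of 14097 genes 19 were called (0.135%), 2 higher (0.0142%) and 17 lower (0.121%), and in 27.8% of the genes that mouse lay below the 3 eHGT_058h mice. The count was 3 without eHGT_058h MouseID-458159 and 45 without eHGT_058h MouseID-497551. The other eHGT_078h mice, MouseID-453328 and MouseID-454782, had 2 and 1 such cells and did not enter the fit; their values are given beside it and depart from it for several genes. Arc was at 13.9 CPM in MouseID-498749 (376 and 298 CPM in the mice outside the fit) and at 972, 456 and 929 CPM in the eHGT_058h mice (-5.64, limma adjusted p = 6.59e-05). Egr1 was at 458 CPM in MouseID-498749 and at 1400 to 2316 CPM in the eHGT_058h mice, but at 2480 and 667 CPM in the mice outside the fit, the first above every eHGT_058h mouse. Nr4a1 was at 41.9 CPM in MouseID-498749 and at 250 to 408 CPM in the eHGT_058h mice, but at 435 and 0 CPM outside the fit. Fos was at 6.94 CPM in MouseID-498749 and 175 to 318 CPM in the eHGT_058h mice, with 310 and 144 CPM outside the fit. The autotaxin gene Enpp2 and Lamp5, a lysosome-associated membrane protein, were called higher. Enpp2 was at 352 CPM in MouseID-498749 and at 55.4, 43.6 and 25.9 CPM in the eHGT_058h mice, but at 399 and 2.82 CPM in the mice outside the fit. Lamp5 was at 948 CPM in MouseID-498749 and at 1036 and 248 CPM outside the fit, against 122, 205 and 115 CPM in the eHGT_058h mice.

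Over all cells of each mouse, 377 of 15862 tested genes (2.38%) were called, 183 higher (1.15%) and 194 lower (1.22%) with eHGT_078h. The count was 162 without eHGT_058h MouseID-497551, 242 without eHGT_078h MouseID-454782 and 249 without eHGT_058h MouseID-463481. Fezf2 averaged 191, 137 and 111 CPM with eHGT_078h and 23.3, 18.2 and 24.8 CPM with eHGT_058h (log2 difference 2.64, adjusted p = 0.000148). Dkkl1 had an adjusted p of 0.0176 but lay just under the fold limit at -0.996, with 126, 139 and 84.2 CPM with eHGT_078h and 202, 248 and 237 CPM with eHGT_058h. Of 13 tested GABAergic genes 7 fell with eHGT_078h and none rose, beside the larger share of GABAergic cells with eHGT_058h given above. Among those that fell, Lhx6 and Adarb2 reached the level for testing through the eHGT_058h mice, so the count is a description. The transcription factor Lhx6, of interneurons born in the medial ganglionic eminence, averaged 0, 0.406 and 3.02 CPM with eHGT_078h and 28.3, 15.3 and 39.6 CPM with eHGT_058h (-3.91, adjusted p = 0.00318). Adarb2, a marker of interneurons of the caudal ganglionic eminence, averaged 0.638, 0.700 and 0.445 CPM with eHGT_078h and 53.8, 10.8 and 27.9 CPM with eHGT_058h (-4.06, adjusted p = 0.00125). The largest fall was in Pnoc, the precursor of the peptide nociceptin, with 0, 0.194 and 0.235 CPM with eHGT_078h and 88.6, 37.4 and 23.6 CPM with eHGT_058h (-5.27, adjusted p = 0.000148). Pnoc also reached the level for testing through the eHGT_058h mice, where it is high. Bcl11b, which interneurons express too, overlapped between the enhancers over all cells, at 50.2, 45.8 and 19.4 CPM with eHGT_078h and 25.6, 6.33 and 16.9 CPM with eHGT_058h. Serpine2 averaged 333, 355 and 320 CPM with eHGT_078h and 15.1, 15.6 and 21.8 CPM with eHGT_058h over all cells (4.20, adjusted p = 3.05e-07), and Meis2, a homeodomain factor, 97.7, 56.5 and 76.4 CPM with eHGT_078h and 3.78, 8.72 and 7.79 CPM with eHGT_058h (3.36).

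The 4 marker genes had low medians in the other 27 mice, of 9 enhancers. These mice had a median of 3.76 CPM of Slc17a7 (highest 365 CPM) and of 2796 CPM of Gad1 (lowest 1028 CPM). Their cells were thus rich in the GABAergic enzyme, so the low medians do not set excitatory cells beside excitatory cells. Over all cells of a mouse, Fezf2 ranged there from 0 to 35.3 CPM with a median of 0, Rorb from 0.0995 to 64.1 CPM with a median of 2.87, Dkkl1 from 0 to 82.7 CPM with a median of 0.118, and Arc from 0 to 289 CPM with a median of 5.99. The highest value of each was in a mouse of eHGT_023h. In all 3 eHGT_078h mice Fezf2 was above the highest of these 27 mice, and in the eHGT_058h mice (18.2 to 24.8 CPM) it was within their range. The highest Arc of these mice lay above the 3 eHGT_078h mice (217, 53.8 and 24.7 CPM over all cells) and below the 3 eHGT_058h mice (558, 320 and 648 CPM). The highest Rorb lay below 2 of the 3 eHGT_078h mice (90.3, 6.78 and 77.2 CPM) and below every eHGT_058h mouse (149, 250.2 and 277 CPM).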

How the data were processed

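The deposited table holds CPM (counts of a gene per 1000000 of its cell) of 45768 genes in 1483 cells, made by the authors with STAR on mm10, per the submitters' processing notes. The sources used here give no version and no counting step. Each cell sums to 1000000 CPM. The sequences carry no molecular identifiers. The Wilson interval of a share of cells covers counting error only, not the spread between mice. Low values were whole multiples of 1 read (100% within 0.01 of a whole read), which gave the reads per cell. Cells were grouped by the genotype and mouse labels. No column of per-sample values was left out (0). Mean CPM per mouse was compared as log2(mean CPM + 1) with limma 3.58.1 (statmod 1.5.0, R 4.3.3; trend and robust options) over the 6 mice, in genes at 1 CPM or more in at least 2 mice, and a gene was called at an adjusted p under 0.05 and a log2 difference of at least 1 in size. A cell subset needed 5 cells in a mouse. Shares were tested with exact permutation tests, 2-sided. Tables and plots were made in Python 3.11.15 with numpy 2.4.6, pandas 2.3.3, scipy 1.17.1 and matplotlib 3.10.9. The fit was tested on simulated data. That the mice of a group were handled separately is not stated, so p-values measure the spread between these mice.

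Genes were named by rule: the 12 largest called differences each way in all cells and in excitatory cells and the 5 largest in each subset, with a mean of at least 20 CPM in the higher group and no overlap of mice, plus Fezf2, Rorb, Dkkl1 and Arc and members of the gene lists. Pseudogenes, unnamed, sex-linked, mitochondrial, ribosomal and cell-choosing genes were left out. The members and gene lists were chosen with earlier results of these data known. Coordinates are from GENCODE M21 on GRCm38, matched by symbol, and promoters from RefSeq on GRCm38.p6. Alternatives covered the pseudocount, filter, cell thresholds, scaling, fit and each mouse left out. Some results are withheld and not reported here.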

Additional observations from a re-analysis of the deposited data

Results flagged for a closer look

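Igfbp4, a binding protein of insulin-like growth factors, was the 1 gene whose difference between the enhancers departed between cell classes in the test at a pseudocount of 1, against 0 genes at 0.1 and 224 at 10. The log2 difference was 7.5 in Fezf2-positive excitatory cells and 0.56 in excitatory cells with neither Fezf2 nor Rorb. The enhancer differences were apart by 6.94 (SE 0.434, limma interaction test, adjusted p = 0.0266 over genes tested in at least 1 class). Both fitted values depend on the pseudocount, because the gene was at 0 in the Fezf2-positive cells of all 3 eHGT_058h mice and was tested there through the eHGT_078h mice alone. The adjusted p was between 0.0822 and 0.232 with 1 mouse left out, 0.117 with a pseudocount of 0.1 and 0.0102 with a pseudocount of 10.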

How the results depend on the processing

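Counts of called genes depended on single mice and on the low-value settings. In all cells the 377 calls became 162 with a pseudocount of 10, 79 with no filter on low values, 622 with all mice of all enhancers in the fit, 133 with mice of library letter G only and 175 with voom on the recovered reads (added after seeing the data), and 162 to 354 with 1 mouse left out. In excitatory cells the 508 calls became 239, 130, 154 and 76 under the first 4 of these, 316 with the library letter as a covariate, 837 when log values were averaged over cells and 218 to 591 with 1 mouse left out. In Fezf2-positive cells the 1090 calls became 682 with a pseudocount of 10, 627 with no filter, 139 with letter G only, 1950 when log values were averaged and 493 to 1289 with 1 mouse left out. Voom gave 367 calls in excitatory cells and 891 in Fezf2-positive cells. With letter G only, 62 genes were higher and 14 lower in excitatory cells, and 118 higher and 21 lower in Fezf2-positive cells. In Rorb-positive, Fezf2-negative cells the 19 calls became 10 with a pseudocount of 10, 0 with no filter, with the letter covariate or with voom (1558, 757 and 376 genes at an unadjusted p under 0.05), 40 when log values were averaged, 2 with a cell threshold of 3 CPM and 3 to 45 with an eHGT_058h mouse left out. In cells with neither gene the 4 calls became 0 with no filter, letter G only or voom (1675, 1014 and 1340 genes at an unadjusted p under 0.05), 14 with 5 CPM in 3 mice, 7 with the letter covariate, 35 when log values were averaged, 12 with a threshold of 30 CPM and 0 to 29 with 1 mouse left out. The test between the 2 classes gave 1 gene, 0 with a pseudocount of 0.1 (2617 at an unadjusted p under 0.05), 224 with a pseudocount of 10 and 0 to 0 with 1 mouse left out. The cause was not tested in any of these cases. No called gene shared with another setting changed direction. The share of Fezf2-positive cells among excitatory cells differed by -1.36 points at 3 CPM and by -1.91 to 7.07 points with 1 mouse left out. With 1 mouse left out the share of Rorb-positive cells among excitatory cells differed by -58.6 to -46.1 points, and the share of excitatory cells by 15.5 to 23.6 points. Of 72 called genes followed in excitatory cells 37 were called without each mouse in turn, and of 95 in Fezf2-positive cells 55 were. Not run were the planned count models, edgeR and DESeq2; voom on the reads recovered from the CPM was run in their place. In Rorb-positive, Fezf2-negative cells the fits with letter G only, with a threshold of 30 CPM and without the eHGT_078h mice could not be made. No paired analysis was possible because the mice carry no replicate numbers shared between the enhancers; the library letter, which both share, entered as a covariate above.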
